A study of Mus musculus with 4 samples.

Results

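Gene deserts are long stretches of the genome without protein-coding genes, and the accessible regions described here are those found in them. A region was kept when it lay outside every protein-coding gene body and over 200 kb from any protein-coding gene end in the RefSeq annotation of mm10, the build of all coordinates given. On chromosomes 1 to 19 and X, 2890 of 90202 accessible regions met this rule, a share of 3.20% (exact 95% binomial interval 3.09 to 3.32). The rule used the position of a region only, so its calls, width and strength were free to vary. Chromatin was profiled by ATAC-seq in the iMGT-Myh6-eGFP-MEF line, which is derived from mouse embryonic fibroblasts and expresses MGT (Mef2c, Gata4 and Tbx5, factors that drive heart muscle genes) when doxycycline is given. Cells were transfected with siChst7, an siRNA against the carbohydrate sulfotransferase gene Chst7 (2 libraries), or with siControl (2 libraries). All 4 libraries received doxycycline at 1 μg/mL and were collected on day 1 of induction, so the siControl cells express MGT too. Whether the line is a single clone, and whether the replicates labelled biological were separate cultures, is not given in the sources used here, so p-values measure only the spread between these samples. Knockdown of Chst7 was not measured here.

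In ATAC-seq the Tn5 transposase inserts sequencing adapters into DNA that nucleosomes leave free. Accessible regions far from genes are often enhancers, which act on promoters over long distances through folding of the chromosome, and the genes beside deserts are often developmental regulators. Other distal regions are binding sites of the insulator protein CTCF, promoters of long non-coding RNAs (lncRNAs), or repeats.

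The lists held 74402 and 66165 peaks in siChst7 replicates 1 and 2, and 73902 and 75696 peaks in siControl replicates 1 and 2. The siChst7 replicate 2 list was thus the shortest, and the sequencing depth behind each list is unknown. Peaks that shared at least 1 bp across libraries were merged into regions, and no peak had identical values in any pair of libraries. Of 8 fibroblast markers, 7 were open in all 4 libraries (a peak 1 kb or less from an end of the gene), the exception being Prrx1. So were 3 of 3 cardiomyocyte markers, 2 of 3 neural, 2 of 3 immune (Cd68 and Spi1), 1 of 3 epithelial and 0 of 3 endothelial markers.

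Some of the desert regions lay beside microRNA genes. The RefSeq table (GRCm38.p6) held 47 microRNA hairpins inside deserts, and 11 of them (23.4%) had a desert region within 5 kb, called in at least 1 library. Of the desert length, 4.80% lay within 5 kb of such a region, and of 958 hairpins outside deserts 60.0% had a region within 5 kb. For 5 of the 11 the nearest region was called in all 4 libraries, and distances below are to the nearest region so called. The hairpins shown belong to the let-7, miR-99/100 and miR-125 families, which are often transcribed together, and to the miR-221/222 pair. The capitals mark the seed, bases 2 to 8, which pairs with target messenger RNAs; miR-100 and miR-99a share a seed, as do miR-221 and miR-222.
mmu-miR-100-5p: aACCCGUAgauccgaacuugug
mmu-miR-99a-5p: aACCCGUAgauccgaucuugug
mmu-miR-125b-5p: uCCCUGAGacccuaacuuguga
mmu-let-7c-5p: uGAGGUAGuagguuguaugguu
mmu-miR-221-3p: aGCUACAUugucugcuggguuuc
mmu-miR-222-3p: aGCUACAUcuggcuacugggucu

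The fold enrichment and −log10 q of each peak are used below, both the authors' own and both relative to the library's own background. The fold enrichment is the pileup of reads at the peak's summit over the local background, and the −log10 q is the strength of the call after correction for multiple testing. Each library was called separately, so values are set side by side and are not tested between libraries. Where a library had several peaks in a region, the region's values are those of its peak with the highest −log10 q. How often the groups separate over all regions was not counted, so a lack of overlap below describes a single region. Mir100 lay 0.613 kb from the region chr9:41532118-41533426, between Ubash3b and Gm40514 and inside the lncRNA Mir100hg. Its fold enrichment was 8.12 and 8.39 in siChst7, against 10.8 and 9.90 in siControl, and its −log10 q was 28.6 and 23.4 in siChst7, against 43.0 and 36.9 in siControl. Both siControl values lay above both siChst7 values on each scale. Mirlet7a-2 lay 3.29 kb from the same region. Mir125b-1 lay 0.839 kb from chr9:41579780-41581086, where the fold enrichment was 4.46 and 5.30 in siChst7, against 4.64 and 5.03 in siControl, so that the groups overlapped.

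The related cluster on chromosome 16, in the desert between Usp25 and Cxadr, also lay beside open chromatin. Mirlet7c-1 was 2.66 kb and Mir99a 3.41 kb from chr16:77602407-77602955, with a fold enrichment of 14.6 and 12.1 in siChst7, against 13.4 and 17.0 in siControl. On the X chromosome, Mir222 and Mir221 lay 10.5 and 11.1 kb from chrX:19157486-19158301, which lies in the lncRNA Gm14636. Its fold enrichment was 13.8 and 13.9 in siChst7, against 13.6 and 13.5 in siControl. The values of the groups overlapped at the chromosome 16 region, and at the X-linked one both siChst7 values lay above both siControl values, within a range of 13.5 to 13.9.

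Promoters of lncRNA genes were another class of desert feature, and few of them were open. RefSeq promoter windows (GRCm38.p6), 250 bases before to 50 after a gene start, were held for 904 lncRNA genes in deserts. A region called in all 4 libraries overlapped a promoter window of 20 of these genes (2.21%), against 18.5% of 8630 lncRNA genes elsewhere and 51.8% of 17273 protein-coding genes. Such windows are called open here, although a partial overlap was enough and need not reach the gene start. Open ones included those of Firre, an X-linked lncRNA of nuclear organisation, and of Mir100hg. A total of 4 promoter windows are shown. Gm8883 (chr1:71887862-71888161, plus strand) lies in the desert between Fn1 and Mreg, the densest of those of at least 0.1 Mb with at least 5 regions, and the capitals mark 2 matches to the AP-1 motif, the site of the Jun and Fos factors. Mir100hg (chr9:41376276-41376575, plus strand) is the microRNA host gene. Gm26901 (chr1:7398047-7398346, minus strand) holds a match to a CTCF motif, in capitals. Gm13652 (chr2:75137926-75138225, minus strand) is overlapped in part, before the gene start, by a region called with siControl and not with siChst7.
Gm8883: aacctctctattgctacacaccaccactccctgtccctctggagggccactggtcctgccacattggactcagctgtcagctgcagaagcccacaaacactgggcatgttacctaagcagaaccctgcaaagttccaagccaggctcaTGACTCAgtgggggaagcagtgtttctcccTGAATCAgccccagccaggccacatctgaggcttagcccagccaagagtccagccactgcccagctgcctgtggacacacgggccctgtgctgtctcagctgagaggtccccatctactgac
Mir100hg: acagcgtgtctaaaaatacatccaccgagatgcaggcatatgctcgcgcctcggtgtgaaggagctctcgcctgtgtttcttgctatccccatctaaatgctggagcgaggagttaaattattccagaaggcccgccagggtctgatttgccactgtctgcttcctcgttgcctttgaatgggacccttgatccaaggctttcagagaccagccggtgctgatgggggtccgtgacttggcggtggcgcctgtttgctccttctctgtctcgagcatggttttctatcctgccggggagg
Gm26901: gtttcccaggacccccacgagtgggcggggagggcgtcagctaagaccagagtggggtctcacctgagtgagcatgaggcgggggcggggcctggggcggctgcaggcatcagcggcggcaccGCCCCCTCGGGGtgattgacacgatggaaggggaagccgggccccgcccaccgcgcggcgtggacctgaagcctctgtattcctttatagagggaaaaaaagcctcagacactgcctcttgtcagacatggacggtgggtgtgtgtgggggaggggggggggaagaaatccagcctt
Gm13652: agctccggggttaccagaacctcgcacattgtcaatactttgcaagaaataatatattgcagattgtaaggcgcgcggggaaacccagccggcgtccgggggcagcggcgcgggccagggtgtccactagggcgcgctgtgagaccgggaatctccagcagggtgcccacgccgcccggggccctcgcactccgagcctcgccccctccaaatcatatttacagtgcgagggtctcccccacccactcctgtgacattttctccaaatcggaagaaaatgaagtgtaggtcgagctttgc

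The Gm8883 region, chr1:71887735-71888316, had a fold enrichment of 13.1 and 11.6 in siChst7, against 12.4 and 15.7 in siControl. The first Mir100hg promoter, in chr9:41375992-41376680, had 15.1 and 12.4 in siChst7, against 13.8 and 15.3 in siControl. The Firre promoter, in chrX:50635107-50635808, had 15.8 and 14.2 in siChst7, against 15.0004 and 17.1 in siControl. At each of the 3 promoters the groups overlapped. Gm26901, in chr1:7397086-7398427, had a −log10 q of 188 and 135 in siChst7, against 190.4 and 194 in siControl.

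Motif letters were searched on both strands of the promoter windows, and a match describes letters only. The AP-1 letters TGANTCA occurred in 4 of the 21 desert lncRNA windows that overlapped a region called in all 4 libraries (19.05%). They occurred in 10.7% of the 1016 desert windows in no region and in 7.81% of all 32412 windows. The GATA letters AGATAA occurred in 1 of 21 (4.76%), against 18.6% and 11.2%. The TEAD letters GGAATG occurred in 2 of 21 (9.52%), against 16.3% and 14.6%, and the MEF2 letters (CTA, 4 bases of any kind, TAG) in 1 of 21 (4.76%), against 5.02% and 3.72%. The CTCF letters (CC, 3 bases of any kind, AGG, 1 base of any kind, GGC) occurred in 1 of 21 (4.76%), against 0.394% and 3.47%. The T-box letters AGGTGTGA were in 0 of 21, against 0.689% and 1.29%. The 21 windows belong to 20 genes, and each of their shares rests on 0 to 4 matches.

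Calls of desert regions were shared by all libraries less often than calls elsewhere. Of the 2890 desert regions, 1577 had a call in all 4 libraries (54.6%, exact 95% interval 52.7 to 56.4), where the share over all regions was 62.0%. A further 365 were called in 3 libraries, 358 in 2 and 590 in 1. Regions outside deserts were called in all 4 libraries in 62.2% of cases, and those within 1 kb of a gene end in 83.2%. Regions inside gene bodies (58.0%) and those outside genes up to 50 kb away (58.2%) lay nearer the desert share than gene-end regions did. Regions 50 to 200 kb from a gene came closest, at 56.8%. Desert regions called in a single library numbered 214 and 75 in siChst7 replicates 1 and 2, and 107 and 194 in siControl replicates 1 and 2, the lowest number falling on the shortest list. Counted within each library, the share of peaks in regions called in all 4 was 68.6% and 80.5% for desert peaks in siChst7, and 74.0% and 68.8% in siControl. The difference from other peaks was −5.90 ± 2.00 points (SD, n = 4 libraries), in 4 of 4 libraries, with an exact sign-flip permutation p of 0.125. Intervals on shares cover counting error only.

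Calls in all 4 libraries were also the stronger and wider ones. Median fold enrichment was 4.62 for desert regions called in 1 library, 5.15 in 2, 5.96 in 3 and 9.57 in all 4. The median of a region's highest −log10 q was 5.47, 8.44, 11.9 and 32.6 in the same order, and the median width 240.0, 331, 396 and 621 bp. A highest value and a merged width rise in part because more libraries enter them. Taken in single libraries, the regions called in all 4 had a median −log10 q of 27.8 and 21.5 in siChst7, and 26.0 and 25.1 in siControl. Their median peak width was 527 and 473 bp in siChst7, and 494 and 500 bp in siControl. These values were still above those of regions called in 1 library. Called in all 4 libraries, regions outside deserts had a median fold enrichment of 9.29, a value below that of desert regions, but their highest −log10 q had a higher median of 44.2 and their median width was 683 bp. 

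Within each library, desert peaks were narrower and had a lower −log10 q than other peaks, at a similar fold enrichment. The median width of desert peaks was 436 and 410.0 bp in siChst7, and 412 and 406.5 bp in siControl; that of other peaks was 493 and 476 bp in siChst7, and 484 and 471 bp in siControl. The difference averaged −64.9 ± 6.17 bp (SD, n = 4 libraries) and had the same sign in 4 of 4, with a two-sided exact sign-flip permutation p of 0.125, the smallest that 4 libraries can give. Median −log10 q of desert peaks was 17.9 and 16.8 in siChst7, and 18.2 and 16.1 in siControl; that of other peaks was 25.1 and 22.9 in siChst7, and 25.8 and 24.2 in siControl. The difference averaged −7.30 ± 0.859 (SD, n = 4; exact permutation p = 0.125). Median fold enrichment of desert peaks was 7.89 and 8.06 in siChst7, and 8.21 and 7.81 in siControl. It differed from that of other peaks by 0.0665 ± 0.169 (SD, n = 4; exact permutation p = 0.5), higher in 2 of 4 libraries. The fold enrichment thus did not separate desert peaks from the pool of other peaks beyond its spread. That pool held peaks within 1 kb of a gene end, with higher medians: 9.75 and 10.1 in siChst7, and 10.1 and 10.4 in siControl. It also held peaks inside gene bodies, with lower medians: 7.21 and 7.62 in siChst7, and 7.49 and 7.40 in siControl. No test here could pass 0.05.

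Against peaks 50 to 200 kb from a gene the same differences were smaller. Width differed by −26.4 ± 4.75 bp and −log10 q by −1.69 ± 0.475 (SD, n = 4 libraries; exact permutation p = 0.125 for each). The share of peaks in regions called in all 4 libraries differed by −1.52 ± 1.45 points (SD, n = 4; exact permutation p = 0.25), with the opposite sign in 1 of 4 libraries. Fold enrichment differed by 0.0108 ± 0.05005 (SD, n = 4; exact permutation p = 1). At the 200 kb threshold itself no step was seen: the 361 regions at 200 to 220 kb had a median width of 484 bp and 57.9% were called in all 4 libraries, against 467.5 bp and 56.3% for the 442 regions at 180 to 200 kb.

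**Figure D1:**
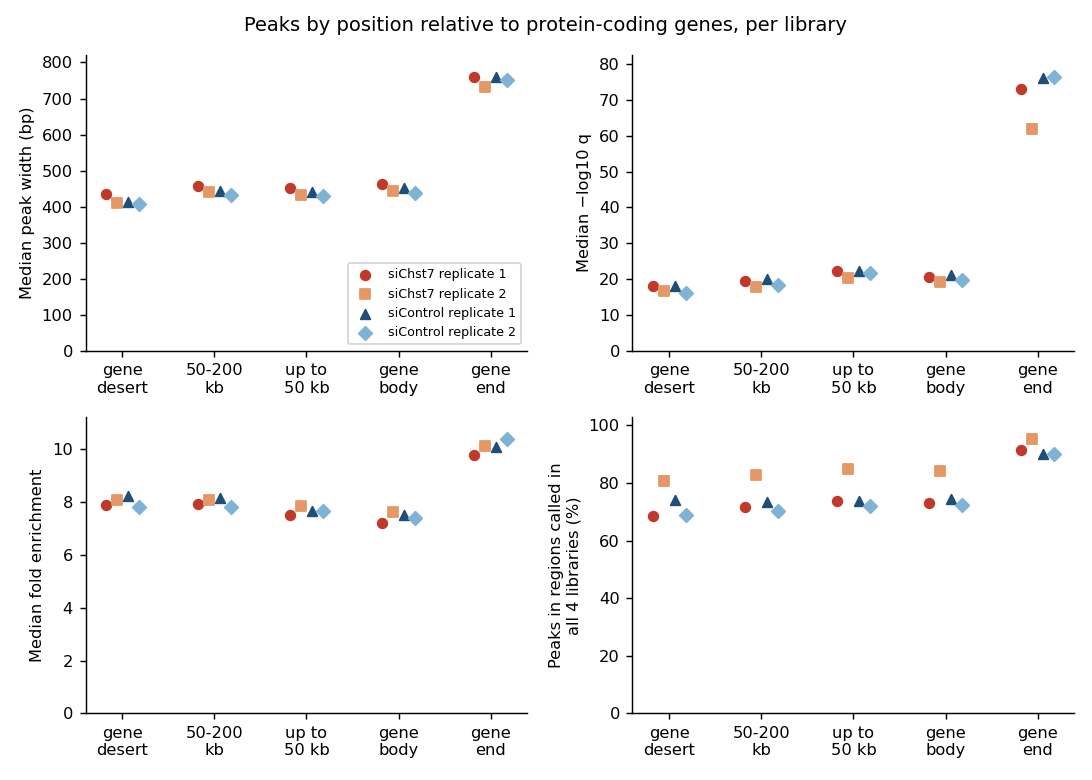
Median peak width (bp), median −log10 q, median fold enrichment and percent of peaks in regions called in all 4 libraries, for each library, by position: gene desert, outside genes at 50 to 200 kb, outside genes up to 50 kb, inside a gene body, and within 1 kb of a gene end. Each point is 1 library; desert peaks have the lowest median −log10 q, 16.1 to 18.2, and a median fold enrichment of 7.81 to 8.21.

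The share of a library's peaks that fell in deserts differed between the siRNAs by less than the spread between replicates in the lists as deposited, and by more than it when the lists were made equally long. In the deposited lists it was 3.13% and 2.99% in siChst7, against 2.93% and 3.08% in siControl, with means of 3.06 ± 0.104% in siChst7 and 3.00 ± 0.110% in siControl (SD, n = 2 each). The difference of 0.0550 percentage points was smaller than either SD (two-sided exact permutation p = 0.667; 2 against 2 cannot go below 0.333). It became −0.0186 without siChst7 replicate 1 and −0.0228 without siControl replicate 1. With every list held to its 66079 strongest peaks the shares were 3.06% and 2.99% in siChst7, against 2.88% and 2.93% in siControl. Both siChst7 values then lay above both siControl values, by 0.119 points between the means (SD 0.0492 in siChst7 and 0.0332 in siControl, n = 2 each), with an exact permutation p of 0.333, the smallest this design allows. The underlying counts were 2328 and 1973 desert peaks in siChst7, and 2160 and 2330 in siControl.

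Few desert regions were called in both libraries of 1 siRNA and neither of the other. Such siChst7-specific regions numbered 41 (1.42%, exact 95% interval 1.02 to 1.92), where 1.24% of all regions were siChst7-specific. The siControl-specific desert regions numbered 90 (3.11%, interval 2.51 to 3.81), where 2.84% of all regions were siControl-specific. Each share was near its background. The order of the 2 counts turned when the lists were made equally long: with every list held to its 66079 strongest peaks, 74 desert regions were siChst7-specific (2.94%; 1.96% of all regions) and 53 siControl-specific (2.10%; 2.05% of all regions). Only 18 of the 41 and 36 of the 90 kept their call under all 3 filters tried, which were −log10 q of at least 5, width of at least 200 bp and equal list length. With 1 library left out, calls needed fewer libraries: siChst7-specific regions then numbered 119 without siChst7 replicate 1, 256 without siChst7 replicate 2, 109 without siControl replicate 1 and 125 without siControl replicate 2. The siControl-specific ones numbered 256, 142, 285 and 199 under the same omissions. The shares over all regions were not counted under these omissions, so the numbers describe only how the calls depend on the libraries kept.

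The group-specific regions were weak and scattered. Their median −log10 q was 6.20 for siChst7-specific and 7.81 for siControl-specific regions. Group-specific regions outside deserts were similarly weak, with medians of 6.57 and 7.70. The 41 siChst7-specific regions included 40 between 2 genes, spread over 39 deserts, and the 90 siControl-specific ones included 89 spread over 77 deserts. Their median distance to the nearest gene was 363 and 328 kb.

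The strongest siChst7-specific region was chr3:150882707-150882997, between Adgrl2 and Adgrl4, genes of adhesion G-protein-coupled receptors. Its −log10 q was 16.1 and 17.9 in siChst7 and its fold enrichment 8.26 and 9.67, with no peak in siControl. It was followed by chr6:109799321-109799635, between Gm6749 and the glutamate receptor gene Grm7, with a −log10 q of 11.9 and 8.9998. Next came chr5:101285898-101286214 between Gpat3 and Nkx6-1, chr1:47277883-47278144 between Slc39a10 and Tmeff2, chr2:45681023-45681366 between Zeb2 and Acvr2a, and chr3:159030767-159031196 between Lrrc7 and Depdc1a. Their −log10 q lay between 7.996 and 11.9. Of the 6, the region near Nkx6-1 lost its call at a width of at least 200 bp; the others kept theirs under each filter.

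The strongest siControl-specific region was chr13:53783594-53783909, 311 kb from Msx2, a homeobox factor of limb and skull mesenchyme, and 267 kb from the dopamine receptor gene Drd1. Its −log10 q was 24.8 and 31.8 in siControl and its fold enrichment 10.97 and 13.1, with no peak in siChst7. The region chr1:186393097-186393386 lay 229 kb from Tgfb2, a TGF-beta ligand that acts on fibroblasts, with a −log10 q of 15.3 and 23.0 in siControl. Another, chr2:137732410-137732871, lay between Jag1, a Notch ligand, and Btbd3, with 15.6 and 19.2. The region chr17:82377175-82377519 lay between the sodium-calcium exchanger gene Slc8a1 and Pkdcc, with 14.5 and 14.9. These 4 kept their call under each filter. Lost at a width of at least 200 bp were the calls of chr2:75138028-75138304, which overlaps part of the Gm13652 window shown above, and of chr3:21049476-21049667 between Agtr1b and Tbl1xr1. Their −log10 q in siControl was 16.6 and 18.3, and 20.0 and 16.0.

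Desert regions were unevenly spread. After 200 kb was taken off each side of the space between neighbouring protein-coding genes, 809 deserts remained, with a total of 517 Mb, or 19.9% of the span from first to last genes. They held 2851 regions, 5.51 per Mb, against 41.9 per Mb outside deserts; the other 39 regions lay beyond the first or last gene of a chromosome. A total of 343 deserts (42.4%) held no region. Unsequenced stretches of the build were not taken off the desert lengths or out of this count. The tenth of deserts with the most regions, 81 in number, held 1473 regions (51.7%) in 15.7% of the desert length. Neighbouring regions of the same desert were a median of 20.3 kb apart, and 34.7% of neighbour pairs lay within 10 kb. Chromosomes 13 and 2 had the highest densities, 13.4 and 11.3 regions per Mb of desert, and chromosomes 19 and X the lowest, 1.88 and 2.08.

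Density was lower at larger distances from genes, while the share called in all 4 libraries stayed within a few points. At 200 to 300 kb from the nearest protein-coding gene there were 1298 regions, 9.81 per Mb, and at 300 to 500 kb there were 984, 6.39 per Mb. At 500 to 1000 kb there were 475, 3.03 per Mb, and beyond 1000 kb there were 94, 1.27 per Mb. The share called in all 4 libraries was 55.4%, 54.4%, 51.8% and 52.1% over these distances.

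**Figure D2:**
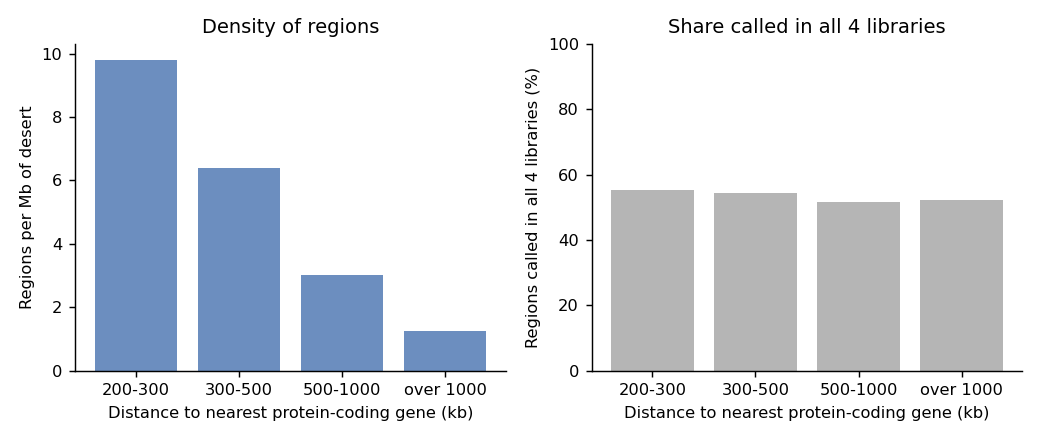
Left, merged regions per Mb of desert, and right, percent of regions called in all 4 libraries, both by distance to the nearest protein-coding gene in kb. Bars are counts over the 4 libraries merged and carry no error; density runs from 9.81 to 1.27 per Mb and the share from 55.4% to 52.1%.

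The densest desert, among those of at least 0.1 Mb with at least 5 regions, lay between Fn1, which encodes the matrix protein fibronectin, and Mreg, a gene of melanosome transport (chr1:71853281-71959232). It held 13 regions in 0.106 Mb, 122.7 per Mb, with 11 and 9 called in siChst7, and 10 and 11 in siControl. Its strongest, chr1:71893485-71894309, had a fold enrichment of 14.3 and 13.2 in siChst7, against 15.2 and 14.5 in siControl. Both siControl values were above both siChst7 values there.

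The desert between Rasgrp1 and Thbs1, which encodes the matricellular protein thrombospondin 1, was next (chr2:117542878-117911875). It held 38 regions, 103 per Mb, of which 25 were called in all 4 libraries. Counts were 34 and 30 in siChst7, and 31 and 30 in siControl, and 19 of its regions lay in lncRNA genes. Its strongest region, chr2:117730985-117731785, lay 388 kb from Rasgrp1 and 380.1 kb from Thbs1, near the middle of the gap. There the fold enrichment was 19.8 and 19.6 in siChst7, against 21.4 and 22.9 in siControl, with no overlap of the groups.

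Next came the desert between 1500009L16Rik and Nuak1, a kinase gene, with 19 regions and 91.3 per Mb, of which 8 were called in all 4 libraries. Counts there were 16 and 10 in siChst7, and 13 and 13 in siControl, so that the siChst7 replicates lay on either side of siControl. The desert between Gadd45g, a stress and growth arrest gene, and Diras2 held 23 regions, 89.9 per Mb, with 17 and 16 in siChst7, and 17 and 17 in siControl. Only 10 of those 23 were called in all 4 libraries.

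The desert between Ubash3b and Gm40514 was the one that holds Mir100hg (chr9:41361693-41706022). It had 28 regions, 81.3 per Mb, with 25 and 24 called in siChst7, and 23 and 23 in siControl. Of the 28, 21 were called in all 4 libraries and 27 lay in lncRNA genes. The strongest, chr9:41461754-41462224 inside Mir100hg, had a fold enrichment of 18.97 and 18.9 in siChst7, against 20.9 and 21.2 in siControl. Both siControl values lay above both siChst7 values at this region.

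**Figure D3:**
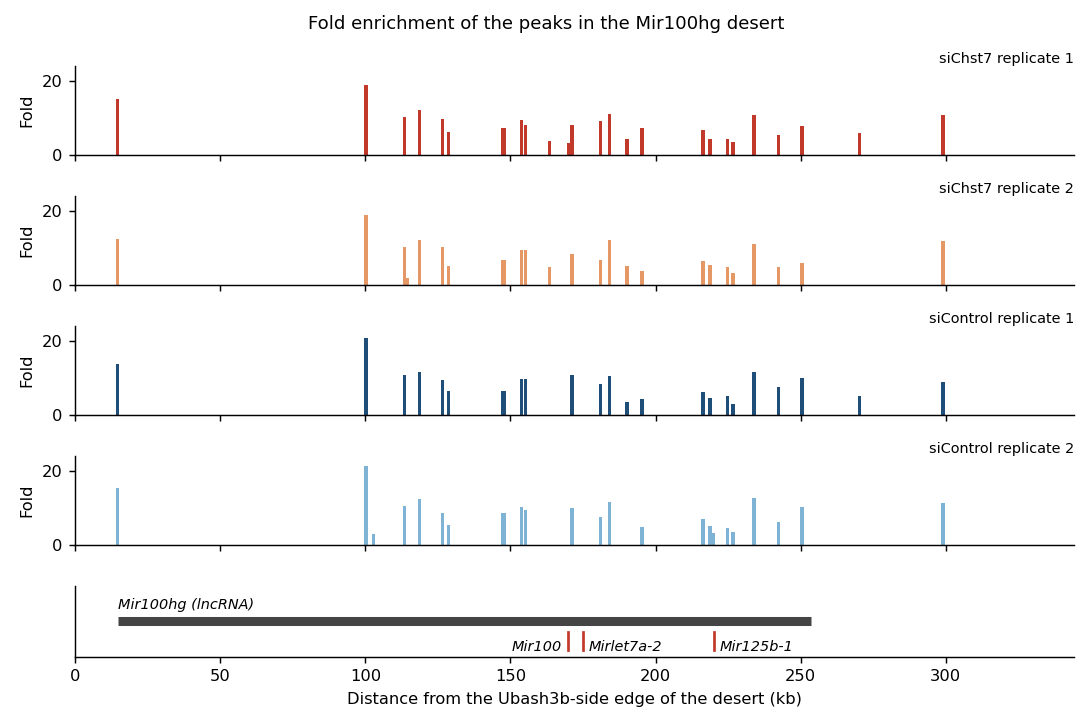
Fold enrichment of each region, 1 panel per library with siChst7 above siControl, against distance in kb from the Ubash3b-side edge of the desert. Each bar is 1 value per merged region and library, placed at the region and drawn at least 1.2 kb wide. The bottom panel marks Mir100hg and 3 microRNA hairpins; the highest bar in every panel is the region with 18.97 and 18.9 in siChst7 and 20.9 and 21.2 in siControl.

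The other deserts of the 12 densest held between 8 and 24 regions each. Foxo1, a forkhead transcription factor gene, and Cog6 flanked 16 regions (68.96 per Mb), with 15 and 11 in siChst7, and 12 and 12 in siControl. Saraf and Dusp4, which encodes a MAP kinase phosphatase, flanked 16 (67.6 per Mb), with 13 in every library. Cxcl12, a chemokine gene, and Zfp637 flanked 17 (65.6 per Mb), of which 14 were called in all 4 libraries, the largest such share of the 12. Runx1, a transcription factor gene of blood and mesenchyme, and Setd4 flanked 23 (64.4 per Mb), with 17 and 20 in siChst7, and 19 and 21 in siControl. Mn1 and the lens crystallin gene Cryba4 flanked 24 (61.6 per Mb), with 20 and 17 in siChst7, and 19 and 19 in siControl. Gap43, a growth cone gene, and Zbtb20 flanked 8 (59.2 per Mb), with 4 and 5 in siChst7, and 7 and 6 in siControl, the one desert of the 12 where both siChst7 counts were below both siControl counts. Aebp2 and the phosphodiesterase gene Pde3a flanked 10 (58.5 per Mb), with 8 and 8 in siChst7, and 9 and 8 in siControl.

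The strongest region of each of these deserts was called in every library, with the following fold enrichments. Between Runx1 and Setd4, chr16:93292896-93293510 had 24.3 and 22.7 in siChst7, against 22.6 and 25.8 in siControl. Between Saraf and Dusp4, chr8:34447851-34448716 had 13.1 and 12.002 in siChst7, against 17.4 and 16.0 in siControl. Between Cxcl12 and Zfp637, chr6:117437494-117438395 had 16.0 and 17.6 in siChst7, against 14.7 and 15.3 in siControl. The groups overlapped at the Runx1 region, while siChst7 was lower at the Saraf region and higher at the Cxcl12 one. Between 1500009L16Rik and Nuak1, chr10:84039016-84039635 had 17.0 and 16.4 in siChst7, against 18.3 and 18.9 in siControl, with no overlap. Between Gadd45g and Diras2, chr13:52235984-52236786 had 14.4 and 14.3 in siChst7, against 14.3 and 15.7 in siControl. Between Foxo1 and Cog6, chr3:52677004-52677883 had 16.3 and 17.4 in siChst7, against 16.6 and 17.8 in siControl. The groups overlapped at both of these. They did so too between Mn1 and Cryba4 (14.6 and 13.6 in siChst7, against 16.0 and 13.5 in siControl), between Gap43 and Zbtb20 (15.4 and 13.7 in siChst7, against 13.5 and 16.8 in siControl) and between Aebp2 and Pde3a (8.72 and 10.1 in siChst7, against 10.4 and 6.75 in siControl). The strongest region was taken as the one with the highest mean fold enrichment over the 4 libraries, a choice made after the densities were seen. Over the 1577 desert regions called in all 4 libraries, median folds overlapped: 9.65 and 9.45 in siChst7, against 9.60 and 9.87 in siControl.

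**Figure D4:**
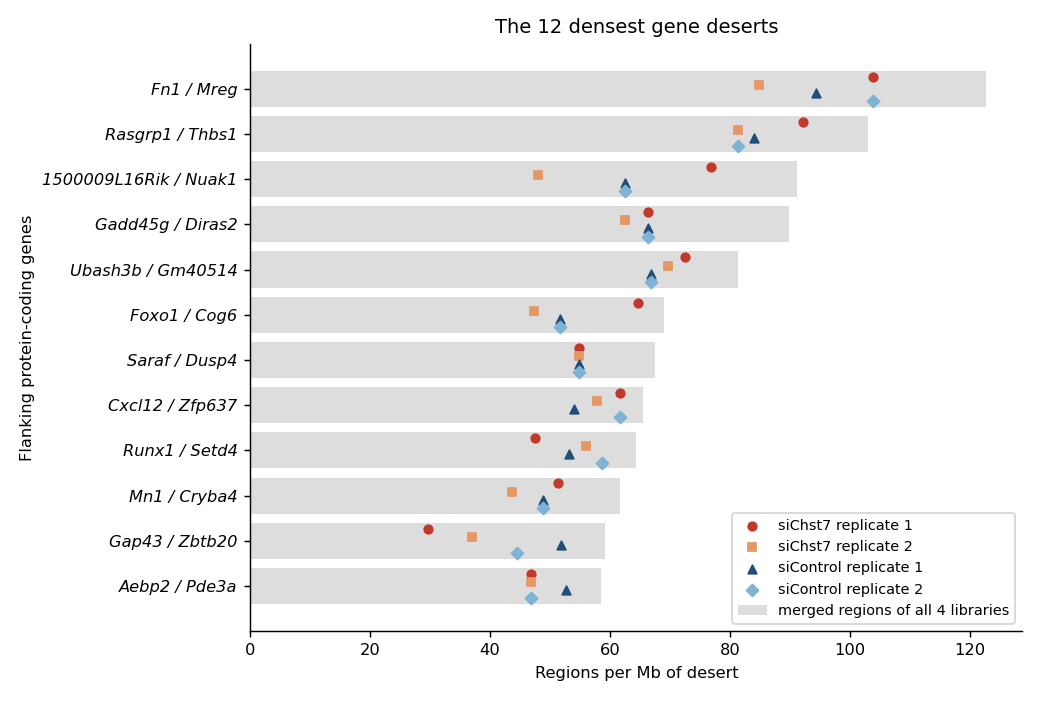
Regions per Mb in the 12 densest deserts, named by their flanking protein-coding genes. Grey bars are merged regions of all 4 libraries, from 58.5 to 122.7 per Mb, and points are single libraries; the siChst7 and siControl points interleave or coincide in all but the Ubash3b and Gap43 deserts.

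By number, the desert between the proto-oncogene Myc and the gasdermin gene Gsdmc was first, with 50 regions in 1.39 Mb, 35 of them called in all 4 libraries. Counts were 48 and 40 in siChst7, and 39 and 42 in siControl. Its strongest region, chr15:63340452-63341242, lay 1350.1 kb from Myc and had a fold enrichment of 17.4 and 18.8 in siChst7, against 19.7 and 19.5 in siControl. The desert between Zeb2, a transcriptional repressor gene of epithelial-mesenchymal transition, and the activin receptor gene Acvr2a held 43 regions in 3.30 Mb, with 37 and 28 in siChst7, and 30 and 35 in siControl. Kcna4 and Mettl15 flanked 37 regions, and Slc10a2 and the ephrin gene Efnb2 flanked 31 in 3.11 Mb.

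Long deserts were sparse for their length. The 19 deserts over 3 Mb held 140 regions, 2.16 per Mb, against 5.51 per Mb over all deserts. They were not alike: the Zeb2 and Slc10a2 deserts above are among them, and Lrrc4c and Iftap flanked 13 regions in 3.53 Mb, 7 of them called in all 4 libraries. The longest, 4.14 Mb between the protocadherin genes Pcdh20 and Pcdh9, held 3, none of them called in all 4 libraries. Those between Olfm4 and Pcdh17 (4.02 Mb) and between Tenm3 and Aga (3.59 Mb) held 1 each, and that between Cntnap5b and Cdh20 (3.88 Mb) held 2.

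Gene lists were then read at the desert borders, where the values describe these deserts and were not tested. Deserts beside secreted signals and their antagonists (75 of 76 genes matched; 32 deserts) held 225 regions, with a median of 14.4 per Mb, and 28 of the 32 held a region. Those beside mesenchymal and limb transcription factors (69 deserts) held 427 regions with a median of 10.1 per Mb. The 14 deserts beside cardiac transcription factors held 61 regions with a median of 5.74 per Mb. The 102 deserts beside synaptic and neuronal adhesion genes held 265 regions with a median of 0.357 per Mb, and the median over all 809 deserts was 1.59. Synaptic deserts were also longer, with a median of 1.01 Mb against 0.353 Mb for all. At 200 to 300 kb from a gene alone, the densities were 22.4, 15.3, 12.1 and 3.00 per Mb in the order of the lists above, against 9.81 for all deserts. The only desert beside an AP-1, YAP or TEAD gene, between Jun and Fggy, held 2 regions. A desert can be flanked by genes of more than 1 list.

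**Figure D5:**
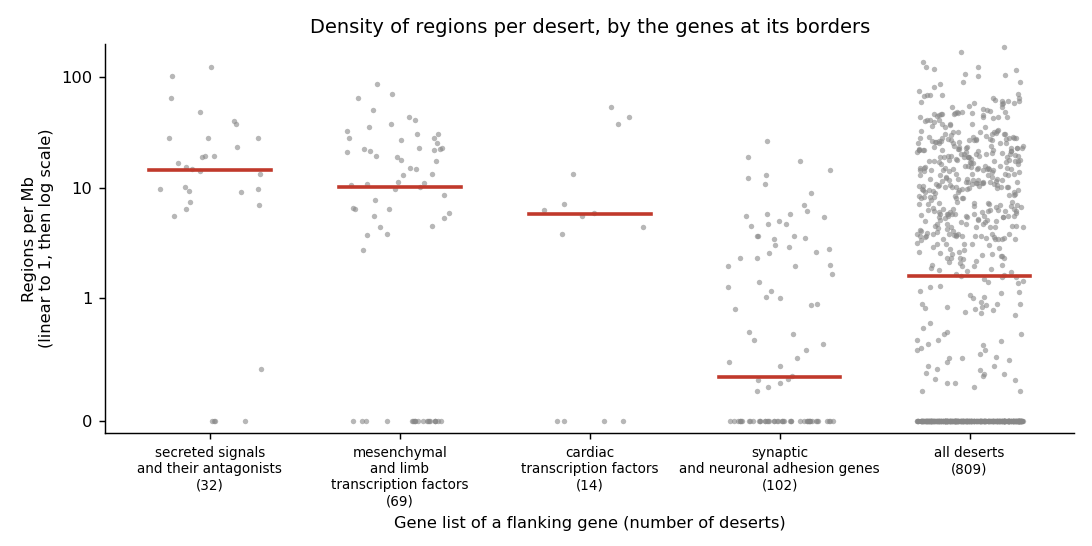
Merged regions per Mb in each desert, by the list of a flanking gene, on an axis that is linear up to 1 and logarithmic above. Each point is 1 desert, the number of deserts is in brackets and red lines are medians, 14.4, 10.1, 5.74, 0.357 and 1.59 from left to right; the list with 1 desert is not drawn.

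The list of secreted signals also holds matrix genes such as Fn1 and Adamts5. Beside its signalling genes, the desert between Ddhd1 and Bmp4, a bone morphogenetic protein gene, held 13 regions (40.0 per Mb, 6 called in all 4 libraries). Bmper, whose product binds bone morphogenetic proteins, and Npsr1 flanked 8 (37.6 per Mb), 7 of them called in all 4. The matrix protease gene Adamts5 and N6amt1 flanked 30 (28.5 per Mb, 17 in all 4). Inhba, which encodes an activin subunit, and Sugct flanked 12 (28.2 per Mb), and 3 of these were called in all 4. Other deserts of this list were sparse. Fermt1 and Bmp2 flanked 2 regions (9.70 per Mb, 0 in all 4), and Bmp2 and Hao1 flanked 4 (7.48 per Mb, 1 in all 4). Shh and Rnf32 flanked 3 (9.21 per Mb, 0 in all 4), and the desert between Ccdc50 and Fgf12 held 0.

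Of the 69 deserts beside mesenchymal factors, 20 held no region, among them those between AW209491 and Gli3, Gm12695 and Nfia, and Hnf4g and Zfhx4. At the dense end, Sox9, the regulator of cartilage, and Slc39a11 flanked 4 regions (70.1 per Mb), each called in all 4 libraries. That desert was only 0.0571 Mb long, below the 0.1 Mb asked of the ranked deserts. On the other side of Sox9, the desert beside Gm11677 held 15 regions in 0.656 Mb (22.9 per Mb, 6 in all 4). Klf6 and Pitrm1 flanked 14 (50.4 per Mb, 10 in all 4), and Prl5a1 and Sox4 flanked 14 (35.2 per Mb, 11 in all 4). Among cardiac factors, Gata6, a factor of heart and gut, and Rbbp8 flanked 8 regions (54.2 per Mb, 7 in all 4). Med13l and Tbx3 flanked 22 regions (43.6 per Mb, 11 in all 4), whereas Cetn3 and Mef2c, itself 1 of the 3 induced factors, flanked 5 in 1.31 Mb (3.83 per Mb, 3 in all 4). The deserts between Mef2c and Tmem161b, Fbxo8 and Hand2, Hey2 and Hddc2, and Myocd and Map2k4 held 0 regions. Among synaptic genes, Nmur2 and the glutamate receptor gene Gria1 flanked 15 (26.3 per Mb), the densest of that list.

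Group-specific calls were also counted by list, where the backgrounds over all regions are 1.24% siChst7-specific and 2.84% siControl-specific. Beside secreted signals, 3 of 225 regions (1.33%) were siChst7-specific and 13 (5.78%) siControl-specific. Beside mesenchymal factors, 4 of 427 (0.937%) were siChst7-specific and 10 (2.34%) siControl-specific. Beside cardiac factors these were 0 and 2 of 61, and beside synaptic genes 4 (1.51%) and 10 (3.77%) of 265. The order of the calls turned with list length, as given above, and counts by list were not repeated at equal length.

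Deserts also held non-coding genes. Of the 2890 regions, 540 (18.7%) overlapped a lncRNA gene body, where 11.4% of other regions did, and lncRNA genes covered 8.52% of the desert length. Only 131 desert regions lay over 200 kb from annotated genes of any type.

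The highest fold enrichments came from narrow regions. Of the 8 regions with the highest mean, the first was chr8:15519778-15520119, between Myom2 and Csmd1, 342 bp wide, with 42.1 and 43.1 in siChst7, against 42.4 and 43.8 in siControl. The next, chr12:97061434-97061780 between Flrt2 and Galc, had 41.3 and 41.8 in siChst7, against 42.4 and 43.0 in siControl. Among the others, chrX:170880924-170881301 beyond Asmt had 37.6 and 34.8 in siChst7, against 38.4 and 37.7 in siControl. The groups overlapped at the Myom2 region, and at the Flrt2 and Asmt regions both siControl values were above both siChst7 values. The region chr6:9889948-9890155 between Nxph1 and Ndufa4 had 27.6 and 29.8 in siChst7, against 32.1 and 31.8 in siControl. The region chr3:5860339-5860823 between Pex2 and 1700008P02Rik had 27.6 and 28.1 in siChst7, against 28.5 and 28.5 in siControl, and chr2:57629491-57629721 between Gpd2 and Galnt5 had 26.2 and 24.3 in siChst7, against 30.3 and 26.9 in siControl. At these 3 as well the siControl values were the higher ones. How often the groups separate in this way over all regions was not counted, so these cases describe single regions. The highest fold enrichment outside deserts had the same order, 47.9 and 48.5 in siChst7, against 49.4 and 49.6 in siControl. For peaks within 1 kb of a gene end the highest values overlapped, 42.6 and 43.7 in siChst7, against 43.3 and 44.1 in siControl. A fold enrichment of at least 20 in all 4 libraries was reached by 13 desert regions (0.450%) and 297 others (0.340%). The 13 had a median width of 347 bp, and 8 were under 400 bp; the 297 had a median of 685 bp, and 36 were under 400 bp.

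A few regions had −log10 q over 1000. The highest was chr2:98666248-98667313, between Lrrc4c and Iftap, with 9381 and 8517 in siChst7, against 9055 and 8638 in siControl, at a fold enrichment of 18.7 and 19.5 in siChst7, against 19.1 and 19.2 in siControl. Others were the Pex2, Myom2 and Flrt2 regions above, and chr9:3000076-3002294 and chr9:3023460-3024662, both before the first gene of chromosome 9, Alkbh8. No source used here says whether repeats or other regions prone to excess reads were filtered, and the part of repeated sequence in these −log10 q values was not tested. Widest was the chromosome 9 region of 2219 bp, then chr14:99548345-99550384 between Klf5 and Klf12 at 2040.0 bp. In the Klf5 region the peak with the highest −log10 q measured 2040.0 and 1061 bp in siChst7, against 967 and 672 bp in siControl. The groups did not overlap on this measure. A library that split the stretch into several peaks would appear narrower on it, and such splits were not counted. The region chr2:48456059-48457896, which covers the promoter of the lncRNA Gm13481, was 1838 bp wide. By the same measure its peaks had 1736 and 1788 bp in siChst7, against 1207 and 1155 bp in siControl. Its fold enrichment was 8.45 and 8.26 in siChst7, against 9.86 and 10.02 in siControl, so that the wider peaks were the lower ones. The widest 5 ended with chr16:3137964-3139768 at 1805 bp and chr16:3343152-3344913 at 1762 bp, before the first gene of chromosome 16.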

How the data were processed

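Accessible chromatin was measured by ATAC-seq in 4 libraries, and per the submitters' processing notes Bowtie, SAMtools, MACS3, bedtools and HOMER were used with the build mm10; their versions and roles, the read totals, duplicate removal and the Tn5 shift are not given here in any source used; per the labels' protocols, reads were paired, of 75 bp, to a target of 50 M per library. The authors deposited 1 peak list per library, with peak names that refer to a single alignment, so replicates were not pooled. A whole-number score, deposited by the authors, restates the −log10 q of each peak. The fold values they deposited are ratios of summit pileup to local background. The deposited −log10 p and −log10 q describe the summit. The summit offset deposited by the authors was used for summit windows. The lowest −log10 q was 2.004, so lists stop near a q-value threshold of 2 on that scale.

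Peaks on chromosomes 1 to 19 and X were merged at 1 bp overlap (Python 3.11.15, pandas 2.3.3, numpy 2.4.6, scipy 1.17.1; matplotlib 3.10.9 for figures), and distances were taken to 21627 protein-coding genes of RefSeq GRCm38.p6. The merging and distance steps were tested on simulated intervals, and the permutation tests were not. Libraries were grouped by the siRNA in their labels and compared with exact permutation tests; peaks of 1 library are not replicates. Named were the 12 densest deserts (at least 0.1 Mb and 5 regions), the 5 with most regions, the 8 highest mean folds (2 of them are not reported here), the 5 widest regions, the 6 strongest group-specific regions per siRNA, regions with −log10 q over 1000, and deserts beside listed genes. The desert rule, gene lists and named-item rule were chosen with earlier results of these data known. Alternatives were −log10 q of at least 5, width of at least 200 bp, equal list length, summit windows of 200 bp, distances of 100 and 500 kb, all gene types, leaving out each library, and a replicate block. Sequence of the regions themselves was not analysed here.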

Additional observations from a re-analysis of the deposited data

How the results depend on the processing

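The distance rule changed the number of desert regions beyond 1.5 times, and group-specific counts changed so with list length, distance and the libraries kept. Over 100 kb, over 500 kb and away from any annotated gene there were 6299, 570 and 131 desert regions (6.98%, 0.632% and 0.145% of all). The share called in all 4 libraries became 57.5% at −log10 q of at least 5, 57.4% at equal list length, 48.8% with summit windows, 51.9% over 500 kb and 43.5% away from any gene; with 1 library left out, 59.6% to 61.8% were called in all 3 remaining. Group-specific counts (siChst7, then siControl) were 74 and 53 at equal list length, 102 and 188 over 100 kb, 9 and 23 over 500 kb, and 1 and 2 away from any gene. With 1 library left out they ranged from 109 to 256 for siChst7 and from 142 to 285 for siControl. Apart from equal list length, the shares over all regions were not counted under these settings, so these counts say nothing particular to deserts. The siChst7 minus siControl share of peaks in deserts ranged from −0.0228 to 0.133 points with 1 library left out, turning to −0.0186 without siChst7 replicate 1 and −0.0228 without siControl replicate 1. With the replicate number as a block it was 0.0550 (exact permutation p = 1). Same-numbered libraries did not deviate together (r = 0.0108 over 1577 desert regions). That value covers only regions called in all 4 libraries, so it cannot show whether same-numbered samples were paired. The fold difference from other peaks turned to −0.250 away from any annotated gene. The cause was not tested. Differences in −log10 q (−10.1 to −1.69), width (−103 to −26.4 bp) and share called in all 4 libraries (−13.1 to −1.52 points) kept the direction of their mean under every alternative run; the comparison with peaks 50 to 200 kb from a gene was chosen after seeing the data. Depth is unknown, and without read counts a missing call cannot be told from a weak one.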
